A study of Mus musculus with 28 samples.

Results

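The genes described here are those whose array signal in wild type mouse kidneys went up strongly between E13.5 and E16.5 (embryonic days) and whose E16.5 signal was already close to that of the adult kidney. They were chosen by the measured values themselves: after a floor at the 20th percentile of all signals of an array design, the mean log2 signal had to be at least 2 higher in wild type E16.5 than in wild type E13.5 kidneys, and the adult mean had to lie within 1 log2 unit of the wild type E16.5 mean. Only probe sets annotated with 1 gene symbol were used, and symbols starting with Slc, Abc, Cyp, Ugt or Aqp (many transporters, cytochromes, glucuronosyltransferases and water channels) were left out. The rule selected 192 probe sets of 178 genes, of 34026 eligible probe sets of 17687 genes. All 192 passed the filter on dim probe sets, as did 23752 of the 34026. The wild type E13.5, wild type E16.5 and adult samples were used by the rule, so comparisons with them are given as descriptions without a test.

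The study measured whole kidneys on a pair of Affymetrix array designs, 430A and 430B, with 14 samples and 28 arrays in 7 groups of 2. Null embryos, collected at E12.5, at E13.5 and at E16.5, carried targeted germline deletions of both Hoxa11 and Hoxd11, paralogous homeobox genes needed for ureteric branching and nephron formation. A null sample came from 1 embryo, both kidneys together, and the labels do not state its strain. Wild type embryos of the same 3 ages were CD-1 mice with kidneys pooled, and the adult samples were each both kidneys of a wild type adult mouse of unstated age. The embryonic samples started from 30 ng of RNA from a Nanoprep kit and the adult samples from 100 ng of RNA from RNAzol, and both went through 2 rounds of in vitro transcription. Values are the deposited MAS5 signals, a linear brightness in arbitrary units, and signals of different probe sets do not share a scale.

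The metanephric kidney forms nephrons when mesenchyme condenses around the tips of the branching ureteric bud and turns into epithelium. Vesicles then become S-shaped bodies, which are divided into a podocyte-bearing glomerulus, a proximal tubule, a loop of Henle and a distal tubule joined to the collecting duct. The first nephrons acquire their brush border, slit diaphragms and mature basement membrane while new ones are still being formed at the periphery, and most transport genes keep increasing after birth. In these bulk samples, fewer cells of a type and less RNA per cell cannot be told apart.

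Several facts of the whole series touch the results. Hoxa11 signals were 211 to 500.1 in the 6 null samples, against 1940 to 3431 in the 6 wild type embryo samples. The 3' to 5' signal ratio of actin, a measure of RNA and amplification quality, was 1.26 to 2.27 on the 430A arrays of null kidneys, against 2.88 to 4.13 on those of wild type embryonic kidneys. The same ratio of Gapdh on 430A was 3.31 to 4.25 in wild type E16.5, 1.99 to 2.68 in wild type E13.5 and 1.68 to 2.03 in adult kidneys. It was 1.68 to 2.16 in null E16.5 and 1.43 to 1.60 in null E13.5 kidneys. Both null E16.5 samples were scanned on a later day and with another scanner than all other samples, so stage cannot be told apart from scan day and scanner in null E16.5 against null E13.5. Null and wild type E12.5 arrays shared no scan day either. Median signals of 430B arrays were 381.7 to 426 in null E16.5 kidneys, against 658.2 to 673.5 in null E13.5 kidneys. They were 622.3 to 653.2 in wild type E16.5 kidneys. On 430A the medians were 476.4 to 477.85 in null E16.5, 524.2 to 542.65 in null E13.5 and 469.9 to 489.2 in wild type E16.5 kidneys. Of 45 tested proximal tubule markers, 33 were called higher and 1 lower in null E16.5 than in null E13.5 kidneys, and the podocyte list gave 12 higher and 2 lower of 28.

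The rule kept a minority of the genes with a strong wild type increase. Of 1120 probe sets at least 2 log2 units higher in wild type E16.5 than in wild type E13.5, the adult mean was within 1 unit for the 192 members, more than 1 unit above for 196 and more than 1 unit below for 732. Among members the wild type difference had a median of 2.40 and a maximum of 5.34, and the adult minus wild type E16.5 difference had a median of -0.21, with 76 probe sets above 0 and 116 below. Just inside the first threshold lay Trps1 at 2.0023, Upk1b at 2.0114 and Mtmr6 at 2.0168, and just outside it Cds1 at 1.9980 and Atp6v1a and Il13ra1 at 1.9929. At the upper limit of the adult window, Lmo7 at 0.9775, Hykk at 0.9559 and Gpm6a at 0.9557 were inside, whereas Tmem30b at 1.0016, Elovl7 at 1.0081 and Hspa1b at 1.0133 were outside. At the lower limit, Ank3 at -0.9999, Psme4 at -0.9977 and Tmem19 at -0.9945 were inside, and Nudt5 at -1.0027, Galnt2 at -1.0081 and Gramd1c at -1.0104 were outside.

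Adult level is a mean of 2 animals that often differed. The 2 adult samples were more than 1 log2 unit apart for 64 members (33.3%, against 18.5% of all tested probe sets), and the 2 wild type E16.5 samples for 9 members (4.69%, against 7.21% of all). Leaving out adult replicate 1 gave 188 members and leaving out adult replicate 2 gave 231, of which 143 and 156 were among the 192. Leaving out wild type E13.5 replicate 1 gave 283 members, 159 of them among the 192.

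Wild type levels at E12.5 were mostly near those at E13.5. The median log2 signal over members was 8.68 at E12.5, 8.23 at E13.5, 10.88 at E16.5 and 10.82 in the adult. Wild type E13.5 was within 1 unit of wild type E12.5 for 145 members, while E12.5 was at least 1 unit above E13.5 for 41 and at least 1 unit below it for 6. The 6 included both probe sets of Atp1b1, Fabp4 (a fatty acid binding protein), Sh2d4a, Tspan8 and Upk1b. Low wild type E13.5 values were part of the rule, so these counts and medians carry that choice. The wild type difference between E12.5 and E13.5 was not tested. In null kidneys the median was 9.32 at E12.5, 9.34 at E13.5 and 10.40 at E16.5. For 8 members every E12.5 and E13.5 sample of both genotypes was at the floor: Fam167b, Ly6g2, Mep1b, Ppargc1a, Ppil6, Prkcq, Sult1d1 and Tfec.

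**Figure D1:**
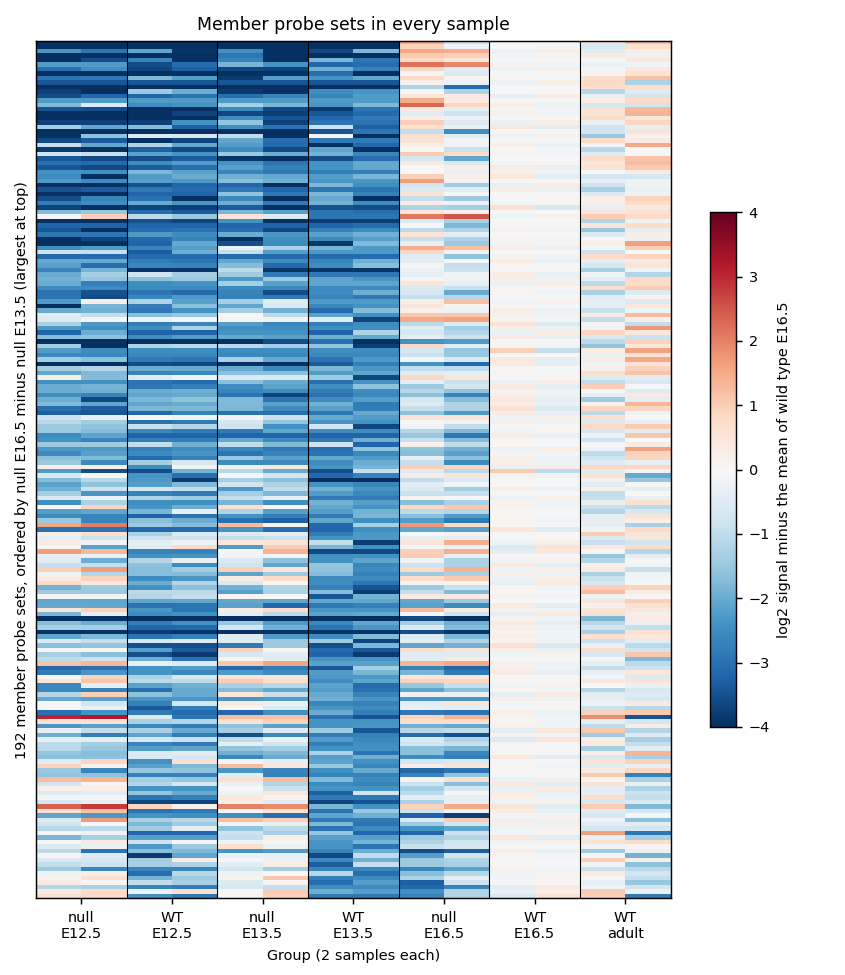
Log2 signal of the 192 member probe sets (rows) in the 14 samples (columns, 2 per group), each minus the probe set's mean in wild type E16.5, ordered by null E16.5 minus null E13.5 with the largest at the top. Rows near the top are low in all E12.5 and E13.5 samples of both genotypes, while many lower rows are low in wild type E13.5 but near the wild type E16.5 level in null E12.5 and null E13.5 samples.

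The first question was whether the members also increased in null kidneys, which it did not use. In null E16.5 against null E13.5 kidneys, 66 member probe sets of 60 genes were called higher (34.4%; background 5.83% of 30561 tested probe sets) and 3 were called lower (1.56%; background 9.2%), at an adjusted p under 0.05 from a limma model over all 14 samples. Both null E16.5 samples lay above both null E13.5 samples for 112 members (58.3%; background 20.6%). The 30561 tested probe sets include some that the rule could not choose, and 23752 of them were eligible. With 1 probe set for each gene, 49 of 98 members were called higher (50%), against 8.46% of all probe sets. The median difference over members was 0.78 log2 units, against -0.26 over all tested probe sets, and the range was -2.42 to 5.66. It was at least 2 for 50 members, between 1 and 2 for 38, within 1 of 0 for 93 and -1 or lower for 11. When each array was centred on its median, the median over all probe sets became 0.11 and that over members 1.24, with 80 members called higher and 1 lower, while over all probe sets 3566 were called higher and 996 lower in place of 1782 and 2811. Without null E16.5 replicate 1, the median difference over members was 0.67, against -0.23 over all tested probe sets.

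**Figure D2:**
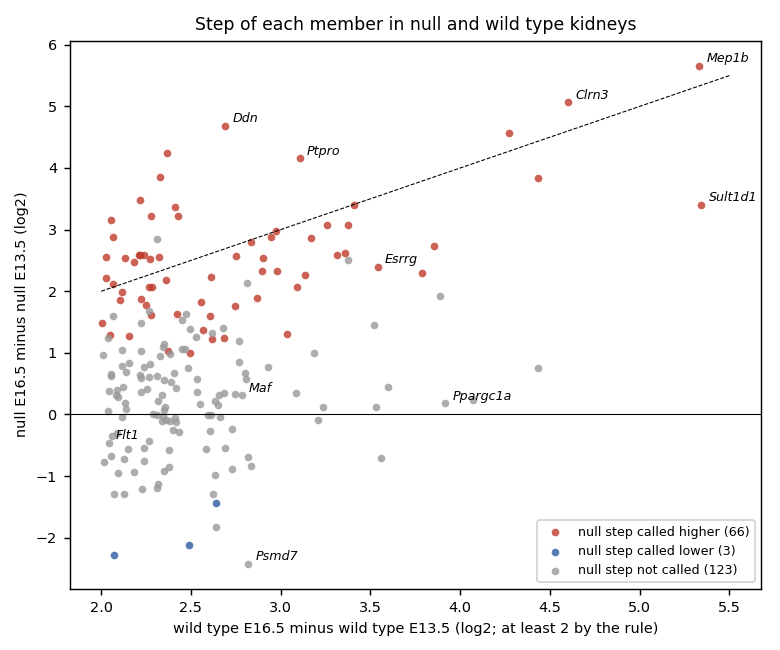
Difference between E16.5 and E13.5 in null kidneys (vertical axis, log2) against the same difference in wild type kidneys (horizontal axis, log2, at least 2 by the rule) for the 192 member probe sets, coloured by the limma call in null kidneys, with equality as a dashed line. The 66 called higher spread around the dashed line, whereas 93 members sit within 1 unit of 0 on the vertical axis.

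A brush border enzyme had the largest increase in null kidneys. Mep1b, the beta subunit of the meprin metalloprotease of the proximal tubule brush border, had signals of 9580 and 1962 in null E16.5 kidneys, against 10.9 and 22.6 in null E13.5 kidneys, both below the floor of 85.7. Null E16.5 was at least 50.6-fold higher, a log2 difference of 5.66 ± 0.53 (SE, n = 2 per group; limma, adjusted p = 2.45e-05). In wild type kidneys Mep1b had 15.1 and 20.4 at E13.5, 3649 and 3268 at E16.5, and 4795 and 7901 in the adult. All 8 samples of E12.5 and E13.5 were under the floor, and the E16.5 ranges of the genotypes overlapped.

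Clrn3, a membrane protein of the clarin family, had 7940 and 3689 in null E16.5 kidneys, against 128 and 204 in null E13.5 kidneys, and rose by 5.06 ± 0.44 log2 units (limma, adjusted p = 1.27e-05). Its wild type E16.5 signals of 4183 and 4357 lay between those of the null E16.5 samples. Anks4b, an ankyrin repeat scaffold of the complex that links microvilli, had 7060 and 4418 in null E16.5 kidneys, against 288 and 873 in null E13.5 kidneys (3.48 ± 0.46, limma, adjusted p = 0.000349). Both null E16.5 samples of Anks4b exceeded the wild type E16.5 signals of 4202 and 3922. Enpep, aminopeptidase A, which cleaves angiotensin II, had 16477 and 11164 in null E16.5 kidneys, against 3664 and 1517 in null E13.5 kidneys (2.52 ± 0.39, limma, adjusted p = 0.00131). It was already well above the floor at E12.5, with 565 and 691 in null kidneys and 1198 and 1202 in wild type kidneys.

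Sult1d1, a cytosolic sulfotransferase, rose in null kidneys but to a lower level than in wild type kidneys. Its signals were 1738 and 475 in null E16.5 kidneys, against 72.5 and 8.1 in null E13.5 kidneys, at least 10.6-fold higher (3.41 ± 0.45 log2 units, limma, adjusted p = 0.000423). Wild type E16.5 kidneys had 3957 and 3977 and adult kidneys 6506 and 6261, all above both null E16.5 samples. The mean log2 signal of null E16.5 minus wild type E16.5 was -2.13, given without a test. Aldh1a7, a mouse aldehyde dehydrogenase that is a close copy of Aldh1a1, had 3252 and 1466 in null E16.5 kidneys, against 241 and 184 in null E13.5 kidneys (3.37 ± 0.38, limma, adjusted p = 9.95e-05). Probes for such close copies can hybridise to both. Dab2, the endocytic adaptor that binds megalin, had 1866 and 1265 in null E16.5 kidneys, against 790 and 483 in null E13.5 kidneys, and did not pass (1.31 ± 0.44, limma, adjusted p = 0.0576) although the groups did not overlap.

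The promoters of 4 of these genes are shown because they belong to the members with the largest null increases and hold the core of a site for Hnf1 transcription factors, which act in the proximal tubule. The sequences are from RefSeq on GRCm38.p6, on the strand of the gene, from 250 bases before the start site to 50 after it, and capitals mark GTTAAT or its reverse complement ATTAAC.
Clrn3, chr7:135528605-135528904, minus strand: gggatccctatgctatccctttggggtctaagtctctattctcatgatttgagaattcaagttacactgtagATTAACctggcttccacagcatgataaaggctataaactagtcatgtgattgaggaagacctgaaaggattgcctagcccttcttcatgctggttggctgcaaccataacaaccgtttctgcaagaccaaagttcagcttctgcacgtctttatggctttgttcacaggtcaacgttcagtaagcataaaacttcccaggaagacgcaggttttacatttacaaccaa
Anks4b, chr7:120173608-120173907, plus strand: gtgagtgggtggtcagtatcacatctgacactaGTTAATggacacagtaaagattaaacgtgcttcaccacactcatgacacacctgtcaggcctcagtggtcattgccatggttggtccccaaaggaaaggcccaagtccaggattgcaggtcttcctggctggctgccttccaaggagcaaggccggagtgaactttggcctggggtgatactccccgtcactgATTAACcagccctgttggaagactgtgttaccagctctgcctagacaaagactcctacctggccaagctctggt
Sult1d1, chr5:87568957-87569256, minus strand: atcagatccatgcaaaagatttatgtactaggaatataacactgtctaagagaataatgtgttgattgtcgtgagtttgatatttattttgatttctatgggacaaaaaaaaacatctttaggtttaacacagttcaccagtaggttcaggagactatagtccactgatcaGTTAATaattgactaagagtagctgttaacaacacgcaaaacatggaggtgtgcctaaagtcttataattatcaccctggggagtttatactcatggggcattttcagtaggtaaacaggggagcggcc
Aldh1a7, chr19:20727507-20727806, minus strand: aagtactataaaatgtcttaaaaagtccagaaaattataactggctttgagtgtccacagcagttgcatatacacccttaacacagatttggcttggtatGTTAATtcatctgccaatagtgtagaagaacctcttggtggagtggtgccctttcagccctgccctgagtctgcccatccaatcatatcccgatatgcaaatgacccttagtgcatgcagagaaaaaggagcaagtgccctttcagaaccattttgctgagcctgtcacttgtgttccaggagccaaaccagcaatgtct

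The match began at -178 in Clrn3, at -217 and -24 in Anks4b, at -79 in Sult1d1 and at -150 in Aldh1a7, counted from the start site. Over all members with a promoter in the table, GTTAAT on either strand was found in 16 of 144 genes (11.1%), and in 2228 of all 27025 genes of the table (8.24%). Among member genes called higher in null E16.5 than in null E13.5 it was found in 7 of 47 (14.9%), and among the others in 9 of 97 (9.28%). CAAAGTCCA, a site of Hnf4 factors, was found on either strand in 2 of the 144 (1.39%), and in 0.555% of all. A match is a run of letters in this window and not a measured binding site.

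All 5 members on the podocyte list were called higher in null E16.5 kidneys, and in both samples Ptpro and Ddn exceeded their wild type E16.5 signals. Ptpro, a receptor tyrosine phosphatase on podocyte foot processes, had 6830 and 5752 in null E16.5 kidneys, against 416 and 298 in null E13.5 kidneys, and rose by 4.15 ± 0.29 log2 units (limma, adjusted p = 2.1e-06). Wild type kidneys had 1648 and 1388 at E16.5, and adult kidneys 1264 and 1375, all below both null E16.5 samples. Ddn, the slit diaphragm protein dendrin, had 12319 and 11718 in null E16.5 kidneys, against 789 and 278 in null E13.5 kidneys (4.68 ± 0.67, limma, adjusted p = 0.000707). Its wild type E16.5 signals of 3662 and 5037 were likewise below both null E16.5 samples, and the mean log2 signal of null E16.5 minus wild type E16.5 was 1.48 for Ddn and 2.05 for Ptpro.

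Synpo, the actin-associated protein synaptopodin, had 3240 and 2110 in null E16.5 kidneys, against 968 and 397 in null E13.5 kidneys (2.08 ± 0.48, limma, adjusted p = 0.0136). Without null E16.5 replicate 1 its difference was 1.77 and no longer passed, and without null E13.5 replicate 2 it was 1.43 and did not pass either. Col4a4, a collagen IV chain of the mature glomerular basement membrane, had 1317 and 1079 in null E16.5 kidneys, against 145 and 463 in null E13.5 kidneys (2.19 ± 0.52, limma, adjusted p = 0.0155). On this probe set the null E16.5 signals were below the 2696 and 2346 of wild type E16.5 kidneys, and the call was lost without null E16.5 replicate 1 (2.04) and without null E13.5 replicate 1 (1.36). Another Col4a4 probe set, which is no member, went the other way, with 6425 and 2122 in null E16.5 kidneys, against 1346 and 1012 in wild type E16.5 kidneys, and rose by 4.64 ± 0.54 over null E13.5, where both samples were under the floor (limma, adjusted p = 0.000118). Npnt, the integrin ligand nephronectin, had 8098 and 4950 in null E16.5 kidneys, against 2236 and 747 in null E13.5 kidneys (2.29 ± 0.46, limma, adjusted p = 0.00653). It too stayed below wild type E16.5, at 11930 and 12190, and was not called without null E16.5 replicate 1 (1.94) or without null E13.5 replicate 2.

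Distal tubule and collecting duct members were called higher in null E16.5 kidneys in 5 of the 6 genes on those lists, read by 1 probe set each. Sostdc1, a secreted antagonist of BMP and Wnt signals in the distal tubule, had 4685 and 3299 in null E16.5 kidneys, against 239 and 315 in null E13.5 kidneys (3.84 ± 0.61, limma, adjusted p = 0.00162), and its other member probe set rose by 4.57. Atp1b1, the beta subunit of the sodium pump, had 33065 and 20481 in null E16.5 kidneys, against 5240 and 2658 in null E13.5 kidneys (2.80 ± 0.32, limma, adjusted p = 0.000125). Wild type E16.5 samples, at 22864 and 21149, fell inside the null E16.5 range for Atp1b1.

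Esrrg, an orphan nuclear receptor for genes of mitochondrial energy supply, had 3440 and 3186 in null E16.5 kidneys, against 804 and 493 in null E13.5 kidneys (2.39 ± 0.43, limma, adjusted p = 0.00326). Both wild type E16.5 samples, at 12554 and 5204, were higher than both null E16.5 samples. Tfcp2l1, a transcription factor of the collecting duct, showed the opposite order, with 12999 and 10865 in null E16.5 kidneys, against 5885 and 3875 in wild type E16.5 kidneys. Null E13.5 kidneys had 3877 and 1945 (2.11 ± 0.39, limma, adjusted p = 0.00389). Upk3a, an uroplakin of the urothelial plaque, had 1405 and 1298 in null E16.5 kidneys, against 128 and 163 in null E13.5 kidneys (3.23 ± 0.33, limma, adjusted p = 5.42e-05). Upk1b, its relative, had 3 member probe sets that disagreed: 1 was called higher (3.86), and the others differed by 2.51 (limma, adjusted p = 0.0578) and 0.96 (limma, adjusted p = 0.306).

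The remaining genes with the largest null increases came from varied families. Sh2d4a, an SH2 domain adaptor, had 6030 and 4908 in null E16.5 kidneys, against 560 and 142 in null E13.5 kidneys (4.24 ± 0.69, limma, adjusted p = 0.00181). Prkcq, protein kinase C theta, was under the floor in all 8 E12.5 and E13.5 samples and had 1160 and 545 in null E16.5 kidneys, against 432 and 400 in wild type E16.5 kidneys. Fam167b was also under the floor in those 8 samples and had 1058 and 780 in null E16.5 kidneys, against 782 and 1062 in wild type E16.5 kidneys. Relative to null E13.5, Prkcq was at least 9.28-fold and Fam167b at least 10.6-fold higher in null E16.5 kidneys (limma, adjusted p = 9.58e-05 and 0.000841). Hoxd8, a homeobox gene of the same cluster as Hoxd11, had 14347 and 11613 in null E16.5 kidneys, against 2355 and 1988 in null E13.5 kidneys (2.58 ± 0.26, limma, adjusted p = 4.73e-05), and its wild type E16.5 signals were 16713 and 12720.

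Other members with high wild type E16.5 signals varied in the null samples. Tmem178, a membrane protein, had 19640 and 14383 in null E16.5 kidneys, against 4106 and 2241 in null E13.5 kidneys (2.47 ± 0.34, limma, adjusted p = 0.000547). Hykk, hydroxylysine kinase, had 8091 and 3014 in null E16.5 kidneys, against 866 and 777 in null E13.5 kidneys (2.59 ± 0.39, limma, adjusted p = 0.00109), but 13012 and 12551 in wild type E16.5 kidneys. Abhd2, a lipid hydrolase, had 14174 and 9213 in null E16.5 kidneys, against 4417 and 7338 in null E13.5 kidneys (1.01 ± 0.30, limma, adjusted p = 0.0407). Abhd2 lost its call without null E16.5 replicate 1 (0.69) and without null E13.5 replicate 1 (0.64), and both null E16.5 samples were below the wild type E16.5 signals of 28766 and 34034. Itga6, a laminin-binding integrin subunit, had 4637 and 3930 in null E16.5 kidneys, against 2849 and 1516 in null E13.5 kidneys (1.04 ± 0.30, limma, adjusted p = 0.0374). Its call did not hold without null E16.5 replicate 1 (0.92), null E16.5 replicate 2 (1.16) or null E13.5 replicate 2 (0.58). Ptprc, the leukocyte surface phosphatase CD45, had 530 and 776 in null E16.5 kidneys, against 246 and 184 in null E13.5 kidneys (1.59 ± 0.47, limma, adjusted p = 0.0374), and lost its call without any 1 of those 4 samples, at 1.32 to 1.87.

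Of the 66 member probe sets called higher, null E16.5 was within 1 log2 unit of wild type E16.5 for 45, at least 1 unit above it for 6 and at least 1 unit below it for 15. Over all 192 members, null E16.5 was at least 1 unit below wild type E16.5 for 76 (39.6%; background 24.1%) and at least 1 unit above it for 13 (6.77%; background 16%). The rule selected high wild type E16.5 values, and the call selected high null E16.5 values for the 66. These counts and shares carry those choices and are not tested.

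Of the 4 members on the list of tubule maturation transcription factors, Esrrg and Tfcp2l1 were called higher in null E16.5 kidneys, as given above, and Maf and Klf9 were not; nor was Ppargc1a, the only member on the list of fatty acid oxidation and mitochondrial metabolism. Ppargc1a, the coactivator of mitochondrial biogenesis, had 110 and 45.7 in null E16.5 kidneys, against 68.9 and 38.1 in null E13.5 kidneys (0.18 ± 0.46, limma, adjusted p = 0.817). It had 1422 and 1180 in wild type E16.5 kidneys and 532 and 1918 in adult kidneys, so null E16.5 minus wild type E16.5 was -3.74 log2 units. Maf, a leucine zipper transcription factor, had 2928 and 2235 in null E16.5 kidneys, against 2906 and 1460 in null E13.5 kidneys (0.31 ± 0.35, limma, adjusted p = 0.57). Its signals were 16417 and 10051 in wild type E16.5 kidneys and 14376 and 19713 in adult kidneys, all well above both null E16.5 samples. Klf9, a zinc finger factor induced by glucocorticoids, had 1084 and 694 in null E16.5 kidneys, against 614 and 36 in null E13.5 kidneys (1.92 ± 0.68, limma, adjusted p = 0.0704). Its null E16.5 signals lay below the 1200 and 1342 of wild type E16.5 kidneys, and the 2 null E13.5 samples were far apart.

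Other probe sets of these genes followed the member probe set only in part. Other probe sets of Ppargc1a had wild type E16.5 minus E13.5 differences of 1.16 to 2.92, and the 3 of them that were tested differed by 0.35 to 1.51 between null E16.5 and null E13.5, none with a call, while its second member probe set differed by 0.23. The probe set with 1.51 had 657 and 411 in null E16.5 kidneys, against 330 and 101 in null E13.5 kidneys (limma, adjusted p = 0.069). On it wild type E16.5 kidneys had 873 and 1294, nearer to null E16.5 than on the member probe set. Adult kidneys had only 92 and 125.6 there. It was also higher in null E12.5 than in wild type E12.5 kidneys (2.21 ± 0.53, limma, adjusted p = 0.0122). For Maf the 4 others tested differed by -0.24 to 1.35, also without a call, and its other probe sets had wild type differences of -0.02 to 1.65. Of the 3 other tested probe sets of Klf9, 1 was called higher in null kidneys.

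Hspa1b, the inducible heat shock protein 70, had 895 and 1362 in null E16.5 kidneys, against 684 and 1104 in null E13.5 kidneys (0.34 ± 0.37, limma, adjusted p = 0.553). Wild type E16.5 kidneys had 2738 and 2338 and adult kidneys 4912 and 4817. Tspan12, a tetraspanin that takes part in norrin signalling, had 111 and 135 in null E16.5 kidneys, against 257 and 280 in null E13.5 kidneys (-1.13 ± 0.54, limma, adjusted p = 0.166). It had 1630 and 1057 in wild type E16.5 kidneys, above both null E16.5 samples. Mff, the mitochondrial fission factor, had 2904 and 3527 in null E16.5 kidneys, against 4904 and 7102 in null E13.5 kidneys (-0.88 ± 0.31, limma, adjusted p = 0.0735), and 13509 and 16920 in wild type E16.5 kidneys. For Tspan12 and Mff the null E16.5 samples lay below both null E13.5 samples without passing the test.

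The 3 member probe sets that fell in null kidneys were of Oxct1, Aspscr1 and Gatad2a. Oxct1, the mitochondrial enzyme that activates ketone bodies, had 490.7 and 680.5 in null E16.5 kidneys, against 2774 and 2245 in null E13.5 kidneys on 1 probe set (-2.11 ± 0.32, limma, adjusted p = 0.00128). On its brighter member probe set it had 9572 and 8642 in null E16.5 kidneys, against 12654 and 9508 in null E13.5 kidneys (-0.27 ± 0.34, limma, adjusted p = 0.617). Wild type E16.5 kidneys had 3255 and 5771 on the first and 15406 and 17306 on the second, so both showed the wild type difference and only the first fell in null kidneys. The difference between these probe sets was not tested.

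Aspscr1, a tether of glucose transporter vesicles, had 162 and 382 in null E16.5 kidneys, against 828 and 1786 in null E13.5 kidneys (-2.29 ± 0.59, limma, adjusted p = 0.0214). Gatad2a, a subunit of the NuRD chromatin complex, had 1044 and 1931 in null E16.5 kidneys, against 2735 and 5407 in null E13.5 kidneys (-1.44 ± 0.45, limma, adjusted p = 0.0464). Neither call held without null E16.5 replicate 1 (-1.67 for Aspscr1, -0.99 for Gatad2a) or without null E13.5 replicate 2 (-1.73 and -0.95), nor with arrays centred on their medians (-1.56 and -0.71).

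None of the other genes with the smallest null differences passed the test. Psmd7, a lid subunit of the 19S particle, had 97.1 and 264 in null E16.5 kidneys, against 642 and 1142 in null E13.5 kidneys (-2.42 ± 0.87, limma, adjusted p = 0.0744). Psmd13, another lid subunit, had 377 and 554 in null E16.5 kidneys, against 1049 and 1203 in null E13.5 kidneys (-1.30 ± 0.69, limma, adjusted p = 0.209), and Psme4, a proteasome activator, had 22.1 and 208 in null E16.5 kidneys, against 519 and 352 in null E13.5 kidneys (-1.29 ± 0.49, limma, adjusted p = 0.09). The groups did not overlap for any of the 3. The other probe sets of these genes did not show the wild type difference that made them members: their wild type E16.5 minus E13.5 differences were -0.89 to -0.28 for Psmd7, -0.82 to -0.46 for Psmd13 and -1.06 to 0.56 for Psme4. A single probe set thus carries each of these genes.

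The same held for most of the genes with the smallest null differences. Of the 12 (Psmd7, Psmd13, Psme4, Aspscr1, Gatad2a, Tfdp2, Sys1, Gm29805, Tmem19, Tspan12, Wipf2 and Fgfr2), 10 had other probe sets on the arrays, and in 8 of these no other probe set differed by 1 log2 unit or more between wild type E16.5 and E13.5. Tfdp2, a partner of E2F factors, had 194 and 1042 in null E16.5 kidneys, against 1263 and 1987 in null E13.5 kidneys (-1.82 ± 0.66, limma, adjusted p = 0.0771). Fgfr2, the receptor for FGF ligands of the ureteric bud, had 427 and 587 in null E16.5 kidneys, against 873 and 1059 in null E13.5 kidneys (-0.94 ± 0.44, limma, adjusted p = 0.156), and 866 and 1094 in wild type E16.5 kidneys. Sys1, Gm29805, Tmem19 and Wipf2 differed by -1.28, -1.22, -1.19 and -0.98 and were not called.

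**Figure D3:**
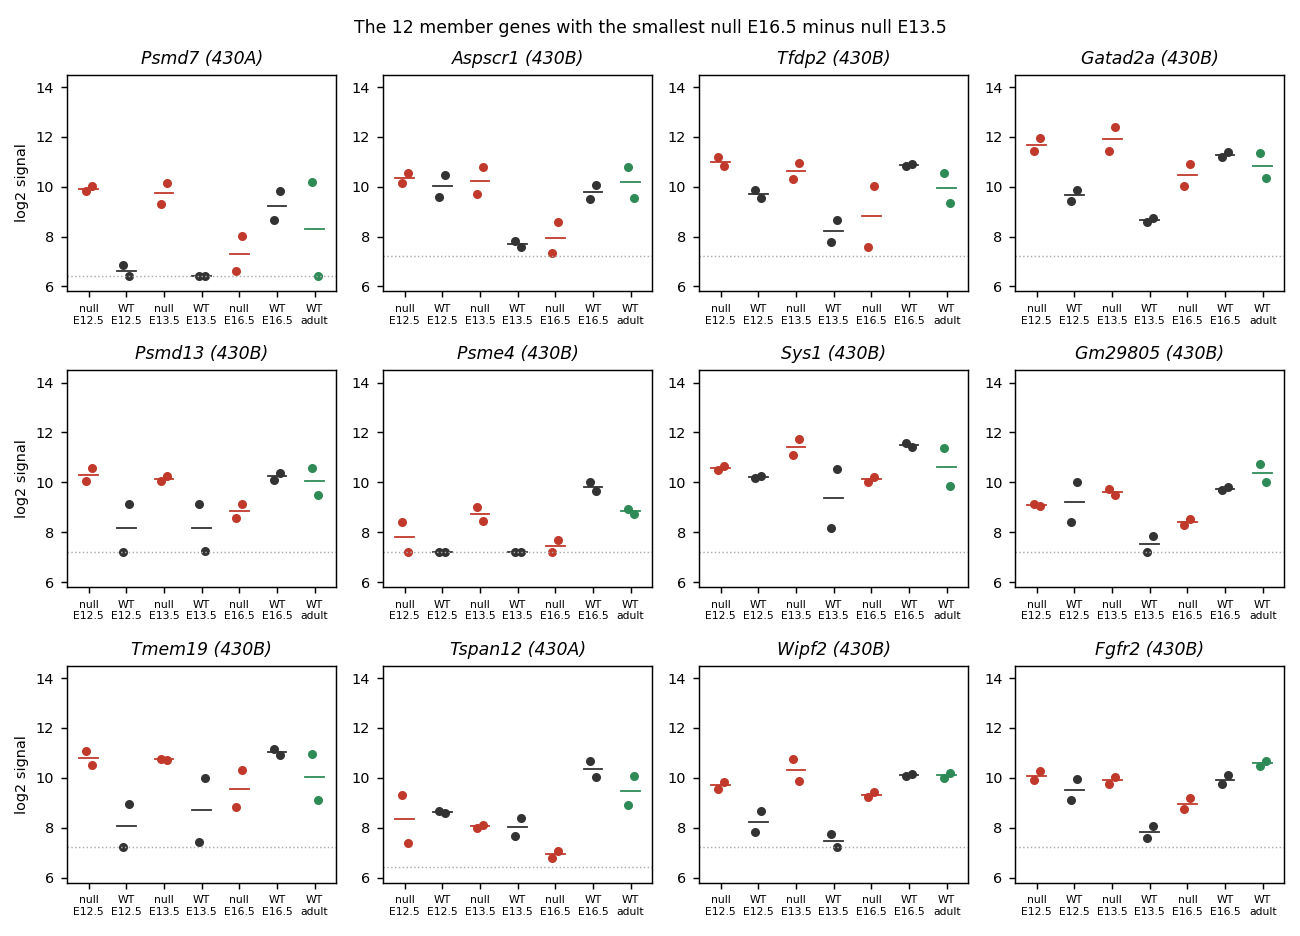
Log2 signal in each of the 14 samples (points; bars are group means, dotted lines the floor) for the 12 member genes with the smallest null E16.5 minus null E13.5 difference, with null in red, wild type embryos in dark grey and adult in green. In most panels null E12.5 and null E13.5 sit near wild type E16.5, and null E16.5 sits lower. Signals are not centred on array medians, which were lower in null E16.5 than in null E13.5 arrays of both designs. Adult samples of Psmd7 are far apart.

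Across all members, agreement between probe sets of a gene was partial. Of the 178 genes, 145 had 349 further probe sets on the arrays, of which 110 (31.5%) were at least 1 log2 unit higher in wild type E16.5 than in wild type E13.5, against 11.5% of all eligible probe sets. For 70 of the 145 genes (48.3%) no other probe set reached that difference. This share was 13 of 37 (35.1%) among genes called higher in null E16.5 and 55 of 106 (51.9%) among those not called. In null E16.5 against null E13.5 kidneys, 248 other probe sets were tested and 39 were called higher (15.7%) and 12 lower. Genes with 2 or more member probe sets numbered 13. Member probe sets with the suffix x_at or s_at, which can read related transcripts, numbered 25. Member genes had a median genomic length of 48960 bases, against 20100 over 17526 genes on the arrays, members and dim genes included. The median was 38606 for the 59 member genes called higher in null E16.5 and 50438.5 for the 119 not called higher.

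Between E12.5 and E13.5 no member passed the test in null kidneys, and few probe sets of any kind did. No member was called higher (background 0.0164%) or lower (background 0.0654%) in null E13.5 than in null E12.5 by limma, and 13 were higher and 8 lower at an unadjusted p under 0.05. The median difference over members was 0.00, against 0.04 over all tested probe sets. Enpep had the most, 1.92, and Crispld2 the least, -1.89. Without null E13.5 replicate 2, 1 member was called higher.

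The second question was whether the genotypes already differed in these genes at E12.5, before the wild type increase. The rule did not use these samples, but wild type E12.5 was within 1 log2 unit of wild type E13.5 for 145 members. The E12.5 counts and medians can therefore carry part of the rule's choice of low wild type E13.5 values, and how much was not tested. In null E12.5 against wild type E12.5 kidneys, 41 member probe sets of 39 genes were called higher (21.4%; background 12.4%) and 4 lower (2.08%; background 6.19%). The median difference was 0.40 over members, against -0.02 over all tested probe sets. With the log2 actin 3' to 5' ratio as a covariate, 13 members were called higher (6.77%; background 1.96%) and 0 lower. Without null E12.5 replicate 2 the median difference over members was 0.37, and without wild type E12.5 replicate 1 it was 0.31. With 1 probe set for each gene it was only 0.02 over 98 members, against -0.11 over all probe sets. With a floor at the 40th percentile it was 0.09 over members. Centring arrays on their medians gave 37 higher and 7 lower, while over all probe sets it gave 2842 higher and 3486 lower in place of 3790 and 1891.

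Tecpr1, a protein that links autophagosomes to lysosomes, had 3309 and 2578 in null E12.5 kidneys, against 163 and 161 in wild type E12.5 kidneys (4.17 ± 0.47, limma, adjusted p = 0.000118). It was also high in null E13.5 kidneys, at 1124 and 2671, against 60 and 17.2 in wild type E13.5 kidneys, which were both under the floor. Fndc5, the precursor of irisin, had 2067 and 2991 in null E12.5 kidneys, against 291 and 325 in wild type E12.5 kidneys (3.01 ± 0.39, limma, adjusted p = 0.000283). Ablim1, an actin-binding protein, had 1630 and 2249 in null E12.5 kidneys, against 236 and 157 in wild type E12.5 kidneys (3.31 ± 0.42, limma, adjusted p = 0.00024). Flt1, a VEGF receptor of endothelium, had 1340 and 777 in null E12.5 kidneys, against 157 and 206 in wild type E12.5 kidneys (2.51 ± 0.41, limma, adjusted p = 0.00138). These 4 kept their call under every alternative in which they were tested, the actin covariate included. None of them was called in null E16.5 against null E13.5: the differences were 0.44 for Tecpr1, 0.36 for Fndc5, 0.31 for Ablim1 and -0.46 for Flt1.

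Crispld2, a secreted protein, had the largest difference, with 27316 and 30507 in null E12.5 kidneys, against 2226 and 441 in wild type E12.5 kidneys (4.87 ± 1.14, limma, adjusted p = 0.0106). It was not called with the actin covariate (1.81), without null E12.5 replicate 2 (4.79) or without wild type E12.5 replicate 2 (3.70), and its adult samples were 12020 and 299. Sptbn1, a beta spectrin, had 2217 and 3094 in null E12.5 kidneys, against 272 and 226 in wild type E12.5 kidneys (3.40 ± 0.56, limma, adjusted p = 0.00137), and 2.52 without a call under the actin covariate. Psmd7 had 916 and 1037 in null E12.5 kidneys, against 115 and 54.7 in wild type E12.5 kidneys (3.29 ± 0.87, limma, adjusted p = 0.019), and lost its call without any 1 of these 4 samples, at 3.08 to 3.51. Ssh1, a cofilin phosphatase, had 30068 and 33327 in null E12.5 kidneys, against 4975 and 4379 in wild type E12.5 kidneys (2.76 ± 0.42, limma, adjusted p = 0.000762). With the actin covariate its difference was 2.04 and no longer passed.

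The 4 probe sets that were lower in null E12.5 kidneys were of Aldh1a7, Fabp4, Cobll1 and Kbtbd7. Aldh1a7 had 259 and 202 in null E12.5 kidneys, against 1249 and 885 in wild type E12.5 kidneys (-2.20 ± 0.38, limma, adjusted p = 0.00176). Fabp4 had 145 and 206 in null E12.5 kidneys, against 639 and 794 in wild type E12.5 kidneys (-2.04 ± 0.39, limma, adjusted p = 0.00338). Both of these genes then rose in null kidneys by E16.5, by 3.37 and 2.55 log2 units over null E13.5. Cobll1 and Kbtbd7 differed by -1.37 and -1.04 at E12.5 and were not called in null E16.5 against null E13.5.

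Markers of several cell types were called higher in null E12.5 kidneys, beside a background of 12.4% higher and 6.19% lower. Podocyte markers gave 5 higher and 0 lower of 28. Other lists went both ways or down. Ureteric and collecting duct markers gave 2 higher and 7 lower of 40. Nephron progenitor and ureteric tip genes gave 5 and 5 of 21, loop of Henle and distal tubule markers 1 and 3 of 29, and proliferation genes 0 and 3 of 19. Endothelial and mesangial markers were called higher in null E12.5 for 15 of 30 and lower for none, and their summed signal was 80371 to 90978 in null E12.5 kidneys, against 43840 to 46499 in wild type E12.5 kidneys, with no marker at the floor in either group. Stromal and matrix markers were called higher for 16 of 28 and lower for none, with sums of 147281 to 174206 in null and 55930 to 64431 in wild type E12.5 kidneys, where Aspn was at the floor in both genotypes and Myh11 and Cnn1 in wild type alone. Macrophage markers were higher for 8 of 28 (sums of 28510 to 33515 in null and 14203 to 15138 in wild type E12.5 kidneys), and Itgam and S100a9 were at the floor in both genotypes. Markers of neurons, muscle, cartilage, adrenal and liver were higher for 5 of 16 (sums of 24627 to 27295 in null and 13186 to 19521 in wild type E12.5 kidneys), with Afp and Apoa1 at the floor in null kidneys. Signals of different probe sets do not share a scale, so bright probe sets weigh most in these sums. Col1a2, on the stromal list, had 27708 and 37276 in null E12.5 kidneys. On 430A arrays the actin ratio was 1.28 to 2.27 in null E12.5 and 3.23 to 4.13 in wild type E12.5 kidneys. The Gapdh ratio overlapped there, at 1.35 to 1.63 in null E12.5 and 1.45 to 1.60 in wild type E12.5 kidneys. Null samples came from 1 embryo each and wild type samples from pooled kidneys of CD-1 mice, and the null strain is not stated. In null E12.5 against wild type E12.5, genotype cannot be told apart from these or from scan day. The part of the marker and actin ratio differences in the result was not tested. Of the endothelial and macrophage lists only Flt1 and Ptprc were members, and no member was on the stromal or neighbour lists.

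Calls in null E16.5 against null E13.5 and in null E12.5 against wild type E12.5, which share no sample, overlapped for few members. Of the 66 called higher in the first, 7 (10.6%) were also called higher in the second, against 10.9% of the 1782 probe sets called higher over all tested; 2 were called lower there and 57 were not called. The 7 were Ptpro, Abhd2, Ccn2, Gpc4, Itga6, Synpo and 1 probe set of Cavin2. The 7 were 17.1% of the 41 called higher at E12.5, against 5.12% of all tested probe sets called higher at E12.5. The share called higher in null E16.5 against null E13.5 was 34.4% over all members and 5.83% over all tested probe sets. Of the 41, 32 were not called in null E16.5 against null E13.5 and 2 were called lower. The null E12.5 mean of these 41 was within 1 log2 unit of the wild type E16.5 mean for 26 and more than 1 unit above it for 6. Null E13.5 exceeded wild type E13.5 by at least 1 unit for 36 of the 41. Over all members that was so for 80 (41.7%; background 17.6%), and null E13.5 was at least 1 unit below wild type E13.5 for 6 (3.12%; background 13.8%). Low wild type E13.5 values were part of the rule, so the E13.5 counts carry that choice and are not tested.

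**Figure D4:**
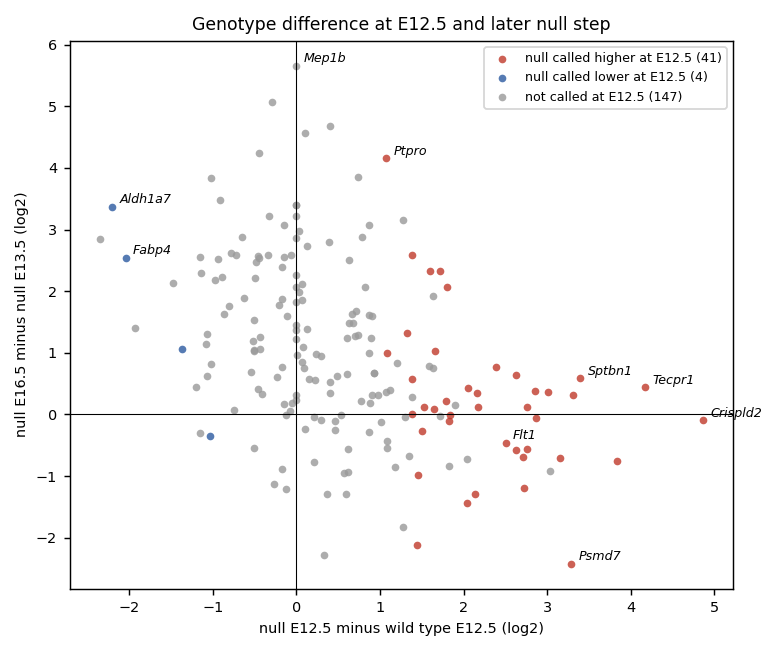
Difference between null E16.5 and null E13.5 (vertical axis, log2) against the difference between null E12.5 and wild type E12.5 (horizontal axis, log2) for the 192 member probe sets, coloured by the limma call at E12.5. The 41 called higher at E12.5 lie to the right, with a median of 0.13 on the vertical axis, and Mep1b and other large later increases lie near 0 on the horizontal axis.

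Lists of related genes, read beside the background of 5.83% higher and 9.2% lower, gave these counts in null E16.5 against null E13.5. Loop of Henle and distal tubule markers were called higher for 16 and lower for 1 of 29, with 3 member genes. Ureteric and collecting duct markers gave 20 higher and 2 lower of 40, with 3 member genes. Genes of fatty acid oxidation and mitochondrial metabolism gave 14 higher and 0 lower of 27, of which Ppargc1a was the only member. Transcription factors of tubule maturation gave 9 higher and 0 lower of 25, with 4 members. Adhesion, junction and basement membrane genes gave 13 higher and 0 lower of 27, with Itga6 and Col4a4 as members. Stress genes gave 1 higher and 0 lower of 17, endothelial and mesangial markers 5 higher and 1 lower of 30, and stromal markers 9 higher and 3 lower of 28. Markers of neighbouring tissues were lower for 9 of 16 and erythroid markers for 4 of 8, none of them members. Nephron progenitor and ureteric tip genes gave 1 higher and 4 lower of 21, and proliferation genes 0 higher and 1 lower of 19, again with no member.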

How the data were processed

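Intensities are the signals the authors deposited, MAS5 values per the submitters' processing notes (the version is not given in the sources used here), with a mean of 1500.27 to 1500.69 on every array once 2% of values at each end are left out. The scan records the authors deposited, which hold no measurement, gave scan day and scanner. Values under the 20th percentile within a design were set to it (85.7 on 430A, 147.8 on 430B) before log2. The 64 control probe sets per design were left out, as were 430B copies of probe sets on both designs and probe sets whose mean never passed the 50th percentile in a group. limma 3.58.1 (R 4.3.3) fitted 7 group means per design (7 residual degrees of freedom, eBayes with trend, two-sided), with Benjamini-Hochberg adjustment over 30561 probe sets, and calls at an adjusted p under 0.05. The 3 comparisons tested were null E16.5 against null E13.5, null E13.5 against null E12.5 (which shares samples with both others) and null E12.5 against wild type E12.5. Gene names come from the platform annotation, and 177 of 178 member genes matched RefSeq by gene ID.

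The members and the 15 gene lists were chosen with earlier results of these data known. For each gene, the member probe set on 430A before 430B, then the brightest, was read. Genes were named where they are on a list, among the 12 largest or 12 smallest null differences, among the 10 highest wild type E16.5 signals, among the 6 largest called E12.5 differences, or next to a threshold of the rule; Oxct1's dimmer probe set, Fabp4, Cobll1, Kbtbd7 and the other genes given only by name were chosen after their values were seen. No 2 arrays held identical values. The design text calls the samples biological replicates, and 2 per group limit the precision, so a missing call does not show that a gene did not change. The fitting code was tested on simulated data. No label says that replicate numbers pair samples. One adult sample's description carries the other replicate number, and its title was followed. Alternatives were other normalizations, floors, filters, variance models, covariates and blocks, and leaving out each replicate.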

Additional observations from a re-analysis of the deposited data

Results flagged for a closer look

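In the 3 member probe sets called lower, both null E16.5 samples lay below both null E13.5 samples. Both wild type E16.5 samples lay above both wild type E13.5 samples there. The 3 were 1.56% of members, against 9.2% of all tested probe sets called lower. Members without a call, such as Psmd7, Psmd13, Psme4, Tspan12 and Mff, also had both null E16.5 samples below both null E13.5 samples. The null difference was -2.11 for 1 of the 2 member probe sets of Oxct1, -2.29 for Aspscr1 and -1.44 for Gatad2a (limma, adjusted p = 0.00128, 0.0214 and 0.0464), against wild type differences of 2.49, 2.07 and 2.64 that the rule selected. Whether the null and wild type differences themselves differ was not tested.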

How the results depend on the processing

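With 2 samples per group, few calls hold under every alternative. Of 759 repeats of 46 calls of named genes, 613 kept the call, 146 kept the direction without the call and 0 changed direction. Members called higher in null E16.5 than in null E13.5 numbered 66, but 13 when only those 4 samples were fitted, and 42 to 61 when 1 sample was left out. Those called lower numbered 3, but 1 with quantile normalization, median centring, no filter or the actin covariate, 0 with 1 probe set for each gene or only the 4 samples, and 1 to 4 when 1 sample was left out. For null E13.5 against null E12.5, leaving out 1 sample gave 0 to 1 called higher. At E12.5, 41 were higher in null kidneys, but 13 with the actin covariate, 15 of 98 with 1 probe set for each gene and 23 to 35 when 1 sample was left out, and 4 were lower, but 7 with quantile normalization or median centring, 2 with no filter, 0 with the actin covariate and 2 to 4 when 1 sample was left out. The median null difference of 0.78 became 1.14 with quantile normalization, 1.24 with median centring, 0.52 with a floor at the 40th percentile, 1.26 with 1 probe set for each gene and 0.67 to 1.07 when 1 sample was left out. The rule gave 479 members with a rise of at least 1.5, 80 with at least 2.5, 83 with the adult within 0.5, 111 with a floor at the 40th percentile and 188 to 283 when 1 sample was left out. The causes were not tested, beyond the fewer samples or probe sets fitted. A floor without control probe sets, tried after seeing the data, gave the same 192 members.

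No label pairs samples of the same replicate number across groups. Over 21 pairs of groups, the correlation of their deviations was -0.353 to 0.28 on 430A (median -0.022, over 0.1 in 7 pairs) and -0.176 to 0.107 on 430B (median -0.00785, over 0.1 in 1 pair), so the numbers were not taken as pairs. With the replicate block, 65 members were called higher and 4 lower in null E16.5 than in null E13.5, and 39 higher and 3 lower in null E12.5 than in wild type E12.5. Over all probe sets, null E16.5 against null E13.5 gave 1643 higher and 2488 lower with the block, and 1782 and 2811 without it. Without the block those counts were 266 and 59 when only the 4 samples were fitted, 3566 and 996 with median centring, 1679 and 1051 with quantile normalization, and 648 to 1212 and 611 to 1941 when 1 sample was left out. Null E12.5 against wild type E12.5 gave 3790 and 1891, but 599 and 181 with the actin covariate, and 1684 to 2431 and 367 to 1109 when 1 sample was left out.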
